A study of Mus musculus with 12 samples.

Results

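The levels of 10 astrocyte marker genes were followed through translating ribosome affinity purification and sequencing (TRAP-Seq) of mouse ventral hippocampus (vHPC) neurons that project to nucleus accumbens (NAc). The 10 genes, Gfap, Aqp4, Slc1a2, Slc1a3, Aldh1l1, Gja1, Aldoc, Glul, S100b and Ndrg2, were taken by name from the 37310 genes of the count data, by a rule that uses no measured value, though earlier results of these data were known when they were chosen. Each of them occurs once in the annotation, and all 10 passed the filter on low counts in every comparison. The mice were C57BL/6 and carried a Cre-dependent GFP-L10a gene at Rosa26, which encodes a tagged protein of the large ribosomal subunit. A retrograde HSV vector with Cre was placed in NAc of both genotypes, and tissue punches of vHPC were taken 3 weeks later. FosB knockout (KO) mice were in addition FosB fl/fl, and wildtype (WT) mice had no floxed FosB allele, so the controls shared the reporter, the vector and the surgery. Cre acts only in cells that took up the vector, so the deletion was aimed at NAc-projecting neurons, while the input holds all cells of the punch. The sample labels give 3 pools per genotype, numbered 1 to 3 in WT and 2 to 4 in KO, with 3 mice in a pool, while the protocol gives 3 to 4. Every pool gave a TRAP library from the ribosomes that anti-GFP antibodies pulled down and an input library from the whole tissue punch. No age is given for these mice in the labels.

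Astrocytes take up the glutamate that neurons release, turn it into glutamine, buffer potassium and water at their endfeet on blood vessels, and are joined to each other by gap junctions. Cre reached vHPC by way of axons in NAc, which astrocytes do not have. The TRAP level of each astrocyte gene was therefore set against the input level of the same pool. Both levels are relative to the counts of their own library, so this share is a relative level and not the fraction of RNA that was carried over.

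Levels are given in CPM, the TMM-scaled share of a gene in the counts of its library. Libraries held 3416030 to 5614089 counts on genes, and 3 counts, taken as the floor of detection, were 0.534 to 0.878 CPM before scaling. This floor covers counting error only. As a check of the genotype, Fosb was measured at 45.2, 32.0 and 40.1 CPM in TRAP of WT pools and at 29.3, 18.8 and 21.5 CPM in TRAP of KO pools. The KO libraries were lower and the groups did not overlap, though 77 to 105 counts of Fosb remained in them. In input, Fosb ran from 22.2 to 30.2 CPM in WT and from 14.8 to 17.0 CPM in KO, also without overlap. One WT input library, that of pool 1, had counts on 15678 genes, against 17255 to 18090 in the other input libraries. Mitochondrial genome transcripts made up 5.29% to 9.05% of input and 0.0305% to 0.130% of TRAP counts. Leaving out that library or any pool changed no call for the 10 genes.

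All 10 astrocyte genes were lower in TRAP than in input. Over both genotypes, 10 of 10 fell at an adjusted p under 0.05 (edgeR's quasi-likelihood test), where 22.5% of the 13214 genes tested fell and 19.6% rose. The median difference of the 10 genes was -3.02 on the log2 scale, against -0.01 for all genes tested. For each of the 10, the highest of the 6 TRAP libraries lay below the lowest of the 6 input libraries, and 12.6% of all genes were separated in this way. Within WT alone 10 of 10 fell, beside 16% of all genes, and within KO alone 10 of 10 fell, beside 14.3% of all genes. In bulk tissue, fewer cells of a type and less RNA per cell cannot be told apart.

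**Figure D1:**
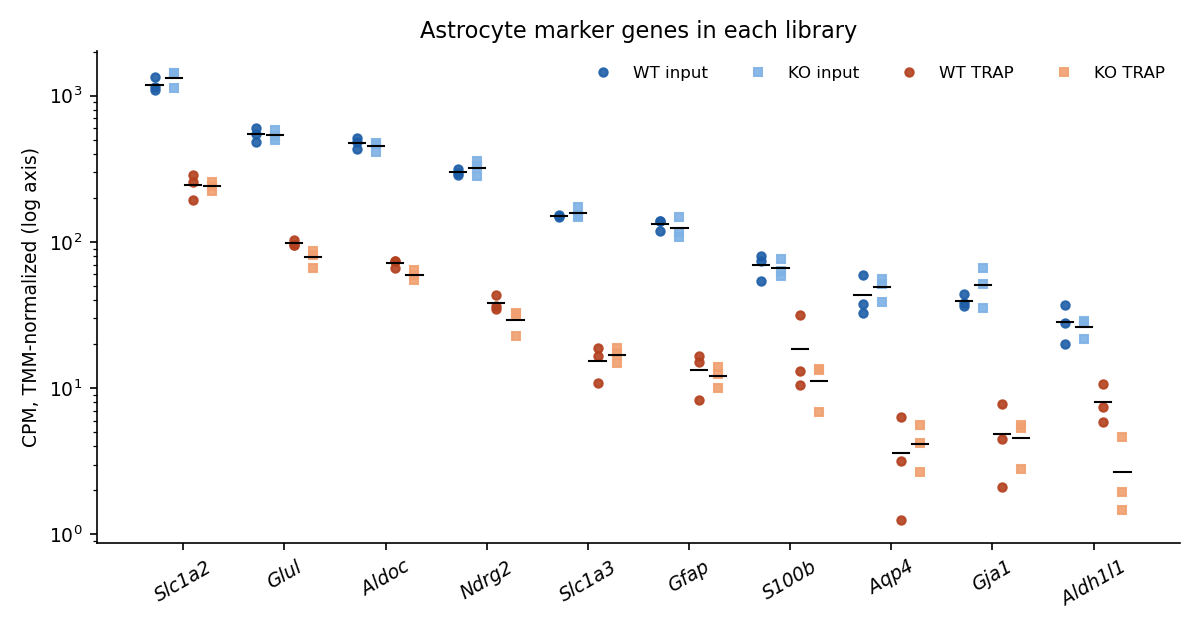
Level of each astrocyte marker gene in each of the 12 libraries, as TMM-normalized CPM on a log axis, with genes ordered by mean input level. Points are libraries, 3 per group, and short lines are group means. The TRAP points lie below the input points for every gene, and the TRAP libraries of Aldh1l1, Gja1 and Aqp4 are at 1.24 to 10.7 CPM.

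Among the members that handle glutamate, Slc1a2 encodes the glutamate transporter GLT-1 and lies on chr2:102498816-102630941 of mm9, on the plus strand. It stood at 1095, 1334 and 1139 CPM in WT input and at 1424, 1128 and 1423 CPM in KO input. In TRAP it was at 257, 193 and 288 CPM in WT and at 257, 224 and 243 CPM in KO. Its difference between TRAP and input was -2.37 ± 0.09 (SE, log2, 6 libraries against 6, edgeR adjusted p = 1.29e-14). The TRAP level was 14.5% to 25.3% of the input level by pool, with a median of 18.9%. Of the exon bases, 189 overlap Gm13872 on the opposite strand, and the strand setting of the counting is not given.

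Slc1a3 encodes the second astrocyte glutamate transporter, GLAST, on chr15:8584124-8660764, minus strand. Its input levels were 150, 147 and 153 CPM in WT and 173, 148 and 150 CPM in KO. Its TRAP levels were 18.7, 16.7 and 10.9 CPM in WT and 14.8, 17.3 and 18.8 CPM in KO, so the genotypes overlapped in both kinds of library. The difference was -3.23 ± 0.11 (SE, log2, edgeR adjusted p = 3.62e-18), and the TRAP level was 7.10% to 12.5% of the input level, with a median of 11.5%. In 6 of 6 pools the share of Slc1a2 was above that of Slc1a3, by 0.86 ± 0.53 (SD, n = 6) on the log2(CPM + 0.5) scale and by 0.31 to 1.77 in single pools, at p = 0.0312, the smallest that a two-sided exact sign-flip test over 6 pools allows, without adjustment for the 45 pairs of members.

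Glul encodes glutamine synthetase, which turns glutamate into glutamine, on chr1:155747074-155756853, plus strand. Input levels were 482, 598 and 548 CPM in WT and 583, 531 and 498 CPM in KO. TRAP levels were 94.4, 103 and 95.6 CPM in WT and 66.7, 81.9 and 86.7 CPM in KO, every KO library below every WT library. The share of input was 11.4% to 19.6%, with a median of 17.3%, and the difference was -2.63 ± 0.08 (SE, log2, edgeR adjusted p = 1.52e-19). Of the stretches of 75 bases tiled over its exons, 24.7% also match mm9 elsewhere at up to 2 mismatches, and reads with several alignments were not counted. Another 67 exon bases overlap 5830403L16Rik on the opposite strand.

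Aqp4 and Gja1 serve the endfeet and the coupling of astrocytes. Aqp4, the water channel of the endfoot membrane, stood at 59.8, 37.3 and 32.8 CPM in WT input and at 51.6, 56.1 and 38.6 CPM in KO input. In TRAP it was at 1.24, 6.35 and 3.19 CPM in WT and at 4.18, 5.61 and 2.69 CPM in KO, from 7 to 27 counts. It had the largest drop of the 10, -3.59 ± 0.27 (SE, log2, edgeR adjusted p = 5.65e-09), and the lowest median share of input, 8.91%, but its share varied from 2.08% to 17.0% between pools. Both extremes belong to WT pools.

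Gja1 encodes connexin 43, the main gap junction protein of astrocytes, on chr10:56097106-56110225, plus strand. Input levels were 36.3, 38.5 and 44.3 CPM in WT and 66.0, 35.5 and 51.4 CPM in KO. TRAP levels were 7.82, 2.12 and 4.52 CPM in WT and 2.79, 5.61 and 5.37 CPM in KO, from 9 to 44 counts, and the genotypes overlapped. The difference was -3.22 ± 0.23 (SE, log2, edgeR adjusted p = 1.40e-10), with a share of input of 4.22% to 21.6% and a median of 10.3%.

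Gfap and S100b are the classical protein markers of astrocytes. Gfap, an intermediate filament protein that rises in reactive astrocytes, lies on chr11:102748650-102762226, minus strand. It stood at 138, 119 and 138 CPM in WT input, 147, 117 and 108 CPM in KO input, 16.5, 15.05 and 8.24 CPM in WT TRAP and 10.0, 13.9 and 12.5 CPM in KO TRAP. Its difference was -3.32 ± 0.14 (SE, log2, edgeR adjusted p = 2.31e-16) and its median share 11.7%, from 5.95% to 12.6%. A match elsewhere in mm9 was found for 8.35% of its exon stretches. S100b, a calcium-binding protein found in astrocytes and in part of the oligodendrocytes, lies on chr10:75716598-75723904, plus strand. It stood at 53.7, 74.4 and 79.9 CPM in WT input, 76.7, 63.7 and 58.4 CPM in KO input, 13.2, 10.6 and 31.6 CPM in WT TRAP and 13.4, 13.4 and 6.84 CPM in KO TRAP. Over both genotypes S100b had the smallest drop of the 10, -2.25 ± 0.26 (SE, log2, edgeR adjusted p = 1.59e-05). Within WT the smallest was that of Aldh1l1, -1.81, and within KO that of Slc1a2, -2.46. For S100b, WT pool 3 was above the others, with a share of 39.5% of its input against 11.7% to 24.5% in the other pools.

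Aldh1l1, Aldoc and Ndrg2 are metabolic or signalling genes that mark astrocytes broadly. Aldoc, the brain aldolase of glycolysis, on chr11:78136470-78141283, plus strand, stood at 414 to 515 CPM in input. Its TRAP levels were 74.0, 74.1 and 66.4 CPM in WT and 59.1, 54.9 and 64.2 CPM in KO, a narrow spread with every KO library below every WT library. Its share of input, 11.8% to 17.2% with a median of 14.1%, had the smallest spread of the 10 by the SD over the 6 pools, and its difference was -2.83 ± 0.08 (SE, log2, edgeR adjusted p = 3.89e-20). Ndrg2, a member of the N-myc downstream regulated family, on chr14:52524946-52533163, minus strand, stood at 280 to 356 CPM in input. Its TRAP levels were 34.7, 36.2 and 43.0 CPM in WT and 22.9, 32.4 and 32.0 CPM in KO, again with every KO library below every WT library. Its share was 6.42% to 14.9%, median 11.2%, and its difference -3.22 ± 0.10 (SE, log2, edgeR adjusted p = 9.68e-20).

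Aldh1l1 encodes a dehydrogenase of folate metabolism and is widely used as a marker of all astrocytes. It lies on chr6:90436421-90550197, plus strand, and shares 499 exon bases with Gm15756 on the opposite strand. Input levels were 20.0, 27.7 and 37.0 CPM in WT and 28.6, 27.7 and 21.6 CPM in KO. TRAP levels were 10.7, 5.88 and 7.44 CPM in WT, from 60, 25 and 28 counts, and 1.95, 1.46 and 4.64 CPM in KO, from 7, 6 and 19 counts. All 3 KO TRAP libraries lay below the 3 WT TRAP libraries, and the input libraries of the genotypes overlapped. Its difference between TRAP and input was -2.53 ± 0.24 (SE, log2, edgeR adjusted p = 2.38e-09). The share of input was 53.3%, 21.2% and 20.1% in WT pools 1 to 3 and 6.82%, 5.28% and 21.5% in KO pools 2 to 4, the widest range of the 10 genes.

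**Figure D2:**
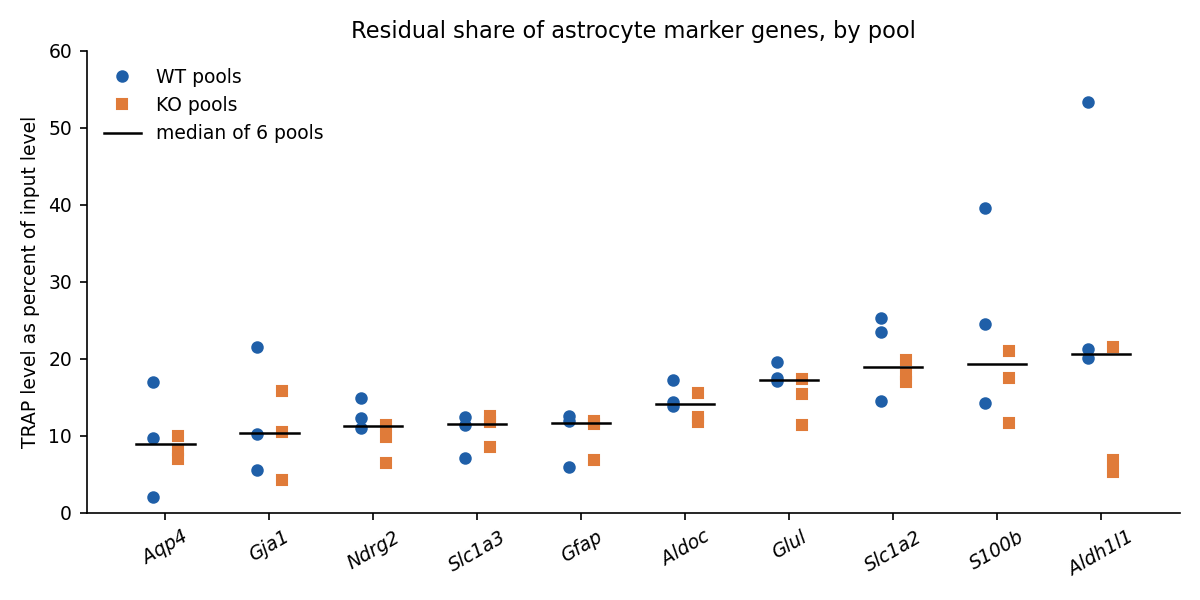
TRAP level as a percent of the input level of the same pool, for each of the 10 genes in order of the median. Circles are the 3 WT pools, squares the 3 KO pools, and lines the median of 6 pools, which runs from 8.91% for Aqp4 to 20.7% for Aldh1l1. WT pool 1 stands at 53.3% for Aldh1l1, and no gene has its WT and KO pools apart.

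Placed in order of the median share, the genes ran Aqp4, Gja1, Ndrg2, Slc1a3, Gfap, Aldoc, Glul, Slc1a2, S100b and Aldh1l1. Neighbours are given as a description, since the order comes from the same shares. The share of Aldoc was above that of Gfap in 5 of 6 pools, by 0.49 ± 0.43 (SD, n = 6) on the log2(CPM + 0.5) scale, and that of Glul above that of Aldoc in 5 of 6 pools, by 0.20 ± 0.18. The other 7 pairs of neighbours kept their order in 2 to 4 of 6 pools, with mean differences smaller in size than their SD. Of all 45 pairs, 11 had the same order in 6 of 6 pools. Summed over the 10 genes, TRAP held 19.0%, 14.5% and 19.0% of the input level in WT pools 1 to 3 and 13.4%, 15.5% and 15.6% in KO pools 2 to 4, so the genotypes overlapped. Slc1a2 alone made up 41.7% to 56.7% of the summed TRAP level and 38.7% to 46.8% of the summed input level. Without it the summed share was 9.99% to 16.1%.

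Levels can be compared between genes only per length of exon. On the RPKM scale, which divides CPM by kilobases of exon, WT input stood at 163 ± 17.4 (SD, n = 3) for Glul, 145 ± 13.1 for Aldoc, 139 ± 6.36 for Ndrg2 and 90.4 ± 9.68 for Slc1a2. S100b followed at 46.7 ± 9.33 and Gfap at 31.3 ± 2.56. Slc1a3, Gja1, Aqp4 and Aldh1l1 were lowest, at 17.6 ± 0.39, 12.8 ± 1.33, 8.15 ± 2.72 and 6.26 ± 1.88 RPKM. Slc1a2, first by CPM, was thus below Glul, Aldoc and Ndrg2 per length, since its annotated exons span 13.153 kb.

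Other astrocyte genes were lower in TRAP as well. In a list of 35 further astrocyte genes, 35 of 35 fell in TRAP, but 7 of them, Gjb6, Mlc1, Slc7a10, F3, Cldn10, Id3 and Gpr37l1, passed the filter on low counts only through input, where they are high, and had to be lower in TRAP. The 28 that passed on TRAP libraries alone, as all 10 members did, also fell, with a median of -2.62 on the log2 scale. Hepacam, an adhesion protein that binds Mlc1, fell by 3.81 and stood at 2.44 to 6.35 CPM in TRAP against 51.2 to 58.2 CPM in input. Mlc1, a membrane protein of astrocyte endfeet, fell by 3.70. Slc7a10, a transporter of small neutral amino acids, also fell (edgeR adjusted p = 1.86e-05), but no TRAP library held more than 1 count of it, so its size is not given. The smallest drops of the list were those of Atp1b2, a sodium pump subunit, by 0.38, of the metallothionein Mt3, by 0.46, and of Clu, which encodes clusterin, by 1.08. Atp1b2 stood in TRAP at 62.5% to 91.8% of its input level and Mt3 at 61.1% to 90.0%, while the highest share among the 10 genes was 53.3%, that of Aldh1l1 in WT pool 1.

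Of 12 partners of the endfoot and the gap junction, 10 fell in TRAP and 2 did not pass the test, among them Dag1, which encodes dystroglycan, at 0.02 (edgeR adjusted p = 0.934). Kcnj10, the potassium channel Kir4.1, fell by 3.19 and Gjb6, connexin 30, by 3.65. Dtna and Dmd, which encode dystrobrevin and dystrophin, fell by only 0.43 and 0.32. On the astrocyte side of the glutamate-glutamine cycle, 5 of 5 genes tested fell, Slc1a2, Slc1a3 and Glul among them. Glud1, glutamate dehydrogenase, fell by 0.85. Slc38a3, a glutamine exporter, fell to between 0 and 1.24 CPM in TRAP from 4.35 to 9.70 CPM in input, but passed the filter only through input. The 4 that passed on TRAP libraries alone all fell. On the neuron side 3 of 6 rose, among them Slc17a7, the vesicular transporter VGLUT1, by 0.26, and Slc1a1, the neuronal glutamate transporter, by 0.62. Slc38a1, a glutamine importer, fell by 0.29, while Slc38a2 and Slc17a6 did not pass the test at -0.12 and -0.07. Of 15 genes of reactive astrocytes, 10 were tested and 7 fell, though only 3 passed on TRAP libraries alone and 1 of these fell. Of the endfoot and gap junction genes, 9 passed on TRAP alone and 7 of these fell. Serpina3n, a protease inhibitor, was at 0.50 (edgeR adjusted p = 0.152) and held 44.3% to 292% of its input level.

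Some genes of the same families rose in TRAP. Aldoa, the aldolase of most tissues, rose by 0.84 ± 0.05 (SE, log2, edgeR adjusted p = 1.24e-12), and in 6 of 6 pools its TRAP to input ratio was above that of Aldoc, by 3.66 ± 0.21 (SD, n = 6). Ndrg1, Ndrg3 and Ndrg4 rose by 0.98, 0.43 and 0.40, while Ndrg2 fell. S100a10 rose by 1.07, while S100b fell along with S100a1 and S100a16. S100a6 and S100a13 were also called lower, but they passed the filter only through input, where they are high. Beside Gfap, the neuronal filament genes Nefl and Ina rose by 0.55 and 0.30, and Vim, vimentin, fell by 2.91. Over the whole list of 27 genes of the members' families, 21 were tested, of which 8 rose and 9 fell. Of the 14 that passed on TRAP libraries alone, 3 fell.

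**Figure D3:**
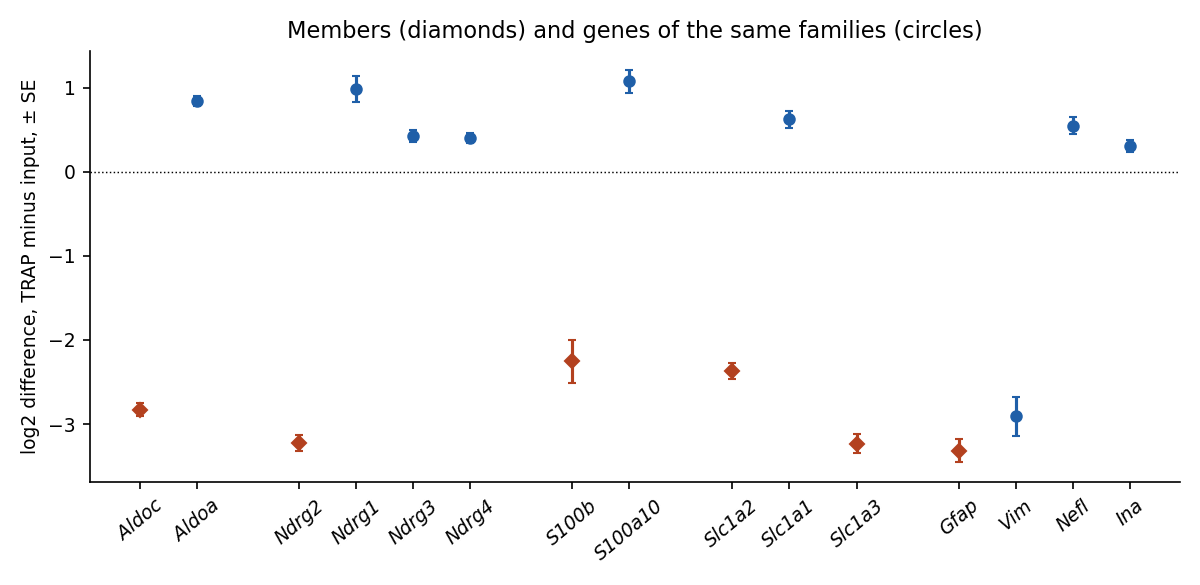
Difference between TRAP and input (log2, edgeR, both genotypes, with SE) for 6 of the members, drawn as diamonds, and for genes of the same families, drawn as circles. Aldoa, the Ndrg1, Ndrg3 and Ndrg4 genes, S100a10, Slc1a1, Nefl and Ina lie above 0, and the 6 members drawn and Vim lie between -2.25 and -3.32.

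Markers of other cells outside the tagged neurons also fell. All 10 oligodendrocyte genes fell, of which 5 passed the filter on TRAP libraries alone, with a median of -3.17 for these 5. The 10 microglia genes were also called lower, but 0 of 10 passed on TRAP alone, so that they entered only through input and their calls follow in part from the filter. Summed over each list, TRAP held 17.4% to 25.8% of the input level of oligodendrocyte genes and 7.19% to 12.2% of that of microglia genes, beside 13.4% to 19.0% for the 10 astrocyte genes. These ranges overlap for astrocytes and oligodendrocytes and not for astrocytes and microglia, but this rests on Slc1a2. Without it the astrocyte range was 9.99% to 16.1%, which overlaps that of microglia and not that of oligodendrocytes. Among the abundant oligodendrocyte genes, Cnp, an enzyme of myelin, fell by 2.36, and Mbp, myelin basic protein, by only 1.02. Summed over 8 genes of pyramidal neurons, TRAP held 127% to 156% of input, with Nrgn and Camk2a rising by 0.77 and 0.19. Of 5 genes of oligodendrocyte precursors (OPC), 4 fell and 1, Cspg4, rose, and of 3 endothelial genes tested 2 fell. Of 8 genes of GABA neurons, 7 fell. On TRAP libraries alone 3 OPC genes passed, of which 2 fell, and 7 genes of GABA neurons, of which 6 fell. Only 1 endothelial gene passed on TRAP alone and it was not called lower, so the 2 that fell entered only through input. The labelled cell type, hippocampal neurons, was present by its defining markers, of which 6 of 8 rose. Among the most abundant, Snap25, a protein of synaptic release, rose by 0.54, Syt1 did not pass the test at -0.08, and Mtap2, which encodes the dendritic protein MAP2, fell by 0.97.

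**Figure D4:**
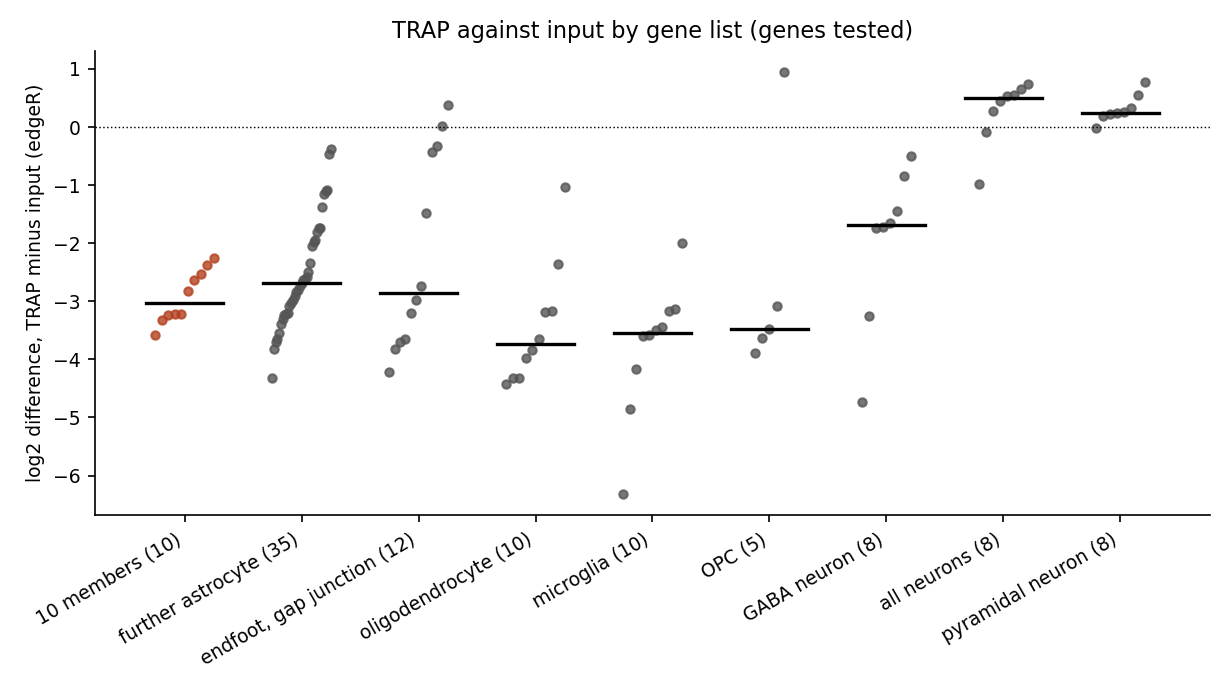
Difference between TRAP and input (log2, edgeR, both genotypes) for each gene tested in 9 lists, with the number of genes tested in brackets and the list median as a line. The 10 members have a median of -3.02, oligodendrocyte genes -3.74 and microglia genes -3.54, while the genes of pyramidal neurons and of all neurons have medians above 0. Genes that passed the filter only through input, among them all 10 of microglia and 5 of oligodendrocytes, are drawn as well.

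KO was next compared with WT, which asks whether the residual astrocyte signal or the astrocyte content of the tissue differed with the genotype. No member was called in either kind of library. In input, 0 of 10 passed the adjusted test, beside 0.0312% of the 12816 genes tested, and 0 of 10 were at an unadjusted p under 0.05, beside 2.89% of all genes. None of the 10 had KO and WT input libraries apart, which 8.37% of all genes had. The differences, KO minus WT, ran from -0.13 for Aldh1l1 to 0.36 for Gja1 on the log2 scale, with a median of 0.03. Gja1 ran from 0.14 without KO pool 2 to 0.56 without KO pool 3, and Aqp4, at 0.18, from 0.0113 without WT pool 3 to 0.48 without WT pool 1. For Slc1a2 the 95% interval was -0.08 to 0.39, for Gfap -0.37 to 0.19, for Glul -0.24 to 0.21 and for Aldh1l1 -0.59 to 0.33. With 3 libraries against 3, an exact permutation test of a single gene cannot go below 0.10.

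In TRAP, 0 of 10 passed the adjusted test as well, beside 0.0682% of the 11727 genes tested. At an unadjusted p under 0.05, 2 of 10 were lower in KO, beside 3.37% of all genes lower at that level. Aldh1l1 was at -1.57 ± 0.51 (SE, log2, 95% interval -2.63 to -0.51, edgeR adjusted p = 0.576). It passed the filter only through the WT libraries, with 1 of 3 KO libraries over the limit of 2.47 CPM, so a lower KO level was favoured by the filter, and its value is given as a description. Aqp4 and Gja1 passed only through the KO libraries, and the other 7 through either genotype. Glul was at -0.31 ± 0.13 (SE, log2, 95% interval -0.58 to -0.04, edgeR adjusted p = 0.784). Without WT pool 2 or KO pool 2, Glul was at -0.27 or -0.21 and no longer under an unadjusted 0.05. With Aldoc at -0.27 and Ndrg2 at -0.38, 4 of 10 had every KO TRAP library below every WT TRAP library, beside 6.12% of all genes. Aldh1l1 is among these 4, with the limit from the filter given above. Each of these 4 was at the smallest p the exact permutation test allows, 0.10. The other 6 overlapped, from S100b at -0.71 (95% interval -1.57 to 0.15, and -0.0879 without WT pool 3) to Aqp4 at 0.23 (95% interval -0.99 to 1.46, and from -0.20 without WT pool 1 to 0.96 without WT pool 2). The 10 genes were measured in the same libraries and are not independent of each other.

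The genotypes were also compared relative to input. In a test of the difference of enrichment between genotypes, 0 of 10 passed the adjusted test, beside 0.00757% of all genes. Aldh1l1 was at -1.44 ± 0.48 (SE, log2, edgeR adjusted p = 1.00) and Ndrg2 at -0.48 ± 0.19 (SE, log2, edgeR adjusted p = 1.00), so 2 of 10 were lower at an unadjusted p under 0.05, beside 1.21% of all genes. Aldh1l1 ran from -1.002 without WT pool 1 to -2.23 without KO pool 4. Ndrg2 was at -0.36 without WT pool 3 and -0.27 without KO pool 2, and then not under that level. For Glul the value was -0.30 (95% interval -0.62 to 0.02). In none of the 10 were the TRAP to input ratios of the 3 KO pools all on one side of those of the 3 WT pools, which 8.61% of all genes tested had. For Aldh1l1, KO pool 4 at 21.5% lay above WT pools 2 and 3.

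**Figure D5:**
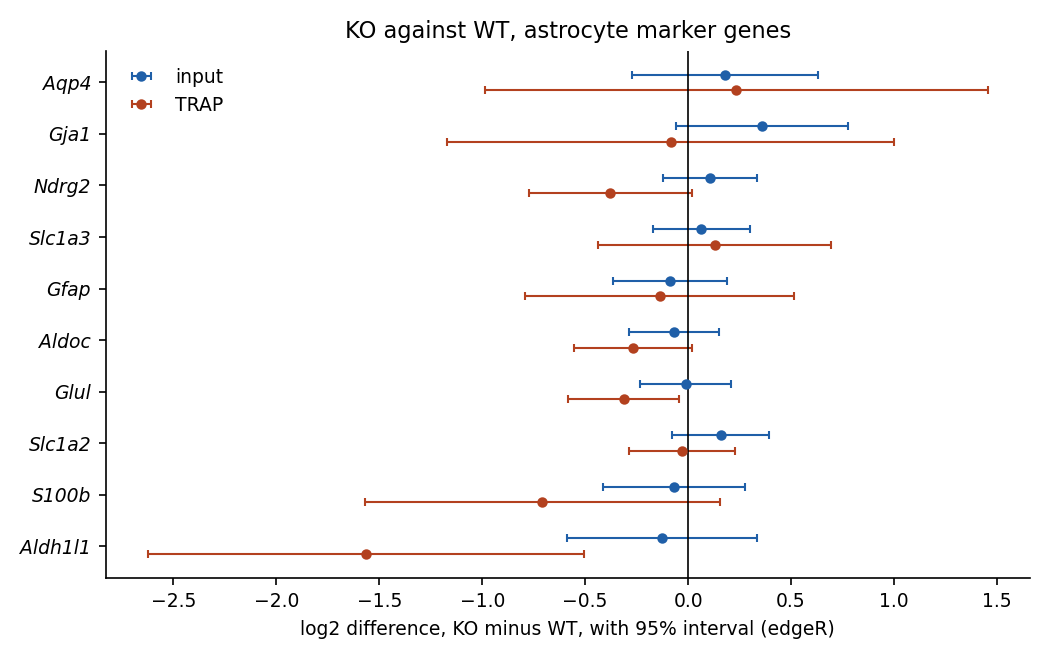
Difference between KO and WT (log2, edgeR, 3 libraries against 3) for the 10 genes in input and in TRAP, with 95% intervals. Every input interval spans 0, and in TRAP those of Aldh1l1, from -2.63 to -0.51, and Glul, from -0.58 to -0.04, do not before adjustment over all genes.

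No further astrocyte gene was called either. Of the 35 further astrocyte genes, 0 were called between KO and WT in TRAP, where 28 were tested with a median of -0.12, and 0 of 35 in input, with a median of 0.09. In TRAP 5 of the 28, Hepacam, Fabp7, Dio2, Kcnj10 and Vim, passed the filter only through the WT libraries, which favoured lower KO values. The 22 that passed on the KO libraries alone, a choice that favours the other direction, had a median of 0.03. In TRAP 4 of the 28 were lower and 0 higher in KO at an unadjusted p under 0.05, beside 3.37% of all genes lower. They were the metallothioneins Mt1 at -0.48, Mt2 at -0.56 and Mt3 at -0.33 and the matrix proteoglycan Bcan at -1.07 (log2), named after their values were seen, with edgeR adjusted p of 0.704 to 0.809. In input 3 of 35 were under that level, Apoe at 0.27 and Vim at 0.52 higher and Mt2 at -0.36 lower (log2), beside 2.89% of all genes in either direction. In the difference of enrichment 4 of 35 were lower and 0 higher, Bcan, Kcnj10, Vim and Id3 at -1.16 to -1.49 (log2), beside 1.21% of all genes lower. The summed TRAP level of the 10 genes was 462 to 559 CPM in WT and 450 to 476 CPM in KO, and that of the oligodendrocyte list 178 to 195 CPM in WT and 154 to 203 CPM in KO, so both overlapped between genotypes. Those of OPC, of all neurons and of the genes of the members' families did not overlap. The summed TRAP level of the 5 OPC genes was 28.5 to 50.0 CPM in WT and 15.6 to 25.4 CPM in KO, and all 3 that were tested had values below 0, with Cspg4, a proteoglycan of these cells, at -0.88 and Olig2, a transcription factor of the lineage, at -0.94 (log2, edgeR adjusted p of 0.576 and 0.894). Cspg4 was the OPC gene that rose in TRAP against input, by 0.95 (log2) over both genotypes, while the other 4 fell. The summed TRAP level of the 8 genes of all neurons was 10665 to 11369.6 CPM in WT and 9557 to 10486 CPM in KO. Of these 8 genes 6 had values below 0, among them Snap25 at -0.21 and Stmn2, a regulator of microtubules, at -0.29 (log2, edgeR adjusted p of 0.595 and 0.576). Cspg4, Snap25 and Stmn2, named after their values were seen, were the genes of the OPC and all-neuron lists at an unadjusted p under 0.05. The summed TRAP level of the 27 family genes was 7125 to 7534 CPM in WT and 6324 to 6976 CPM in KO. Of the 14 family genes tested, 3 were lower and 0 higher at that level, Nefl at -0.31, Aldoa at -0.17 and Ndrg4 at -0.17 (log2), beside 3.37% of all genes lower. These 3 rose in TRAP against input. The sums of the pyramidal neuron, GABA neuron, microglia and endothelial lists overlapped between genotypes. Npy of the GABA neuron list, also named after its value was seen, was at -1.35 (log2, edgeR adjusted p = 0.0618) and was not called. Of the 7 GABA neuron genes tested, 4 were below 0 and 3 above. The part of other cell types or of input RNA in the TRAP values of the members was not tested.

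FosB is a partner of the AP-1 dimer, which binds TGANTCA. The bases before the start of transcription were therefore read for the members with a RefSeq promoter window (GRCm38.p6). Such a window was found for 9 of the 10 genes, 12 windows in all, and the 250 bases before each start were searched on both strands for AP-1 (TGANTCA), CRE (TGACGTCA) and STAT (TTCNNNGAA) letters, which do not overlap each other in these windows. AP-1 letters occurred in the window of Gja1 only, 1 of 12, against 6.75% of 32851 windows of all genes. STAT letters occurred in 1 of the 2 windows of Aldoc and in that of Slc1a3, 2 of 12, against 7.02% of all windows, and CRE letters in none, against 1.55%. Aldh1l1 and Glul, the members with the lowest unadjusted p between KO and WT in TRAP, held none of the 3. The windows of Gja1, Aldh1l1, Glul and Slc1a3 are shown 5′ to 3′ for this contrast, with matches in capitals.
Gja1, chr10:56377050-56377299, plus strand: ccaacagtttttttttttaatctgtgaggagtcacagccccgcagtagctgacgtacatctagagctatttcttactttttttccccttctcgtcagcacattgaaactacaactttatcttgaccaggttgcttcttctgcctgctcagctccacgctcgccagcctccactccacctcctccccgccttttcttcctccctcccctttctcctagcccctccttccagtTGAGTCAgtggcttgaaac
Aldh1l1, chr6:90550543-90550792, plus strand: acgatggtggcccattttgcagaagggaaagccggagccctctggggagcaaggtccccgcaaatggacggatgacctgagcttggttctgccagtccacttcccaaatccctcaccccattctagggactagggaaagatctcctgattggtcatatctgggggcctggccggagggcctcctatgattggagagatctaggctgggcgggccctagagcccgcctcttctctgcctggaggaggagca
Glul, chr1:153899679-153899928, plus strand: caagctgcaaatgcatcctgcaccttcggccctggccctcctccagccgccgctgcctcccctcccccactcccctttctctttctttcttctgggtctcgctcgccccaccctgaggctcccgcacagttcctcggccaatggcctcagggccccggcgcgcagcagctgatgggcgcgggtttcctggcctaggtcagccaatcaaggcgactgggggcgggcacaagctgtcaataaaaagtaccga
Slc1a3, chr15:8710808-8711057, minus strand: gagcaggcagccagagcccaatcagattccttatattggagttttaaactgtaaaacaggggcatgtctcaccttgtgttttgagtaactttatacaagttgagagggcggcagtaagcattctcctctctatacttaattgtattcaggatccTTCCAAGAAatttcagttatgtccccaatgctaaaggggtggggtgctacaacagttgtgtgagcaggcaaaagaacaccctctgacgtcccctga
A match of letters is a description of the window and no evidence of binding.

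Across the 12 libraries, the genes whose level followed the mean profile of the 10 most closely were Syne1, A930011O12Rik, Acsbg1, mt-Nd6, Prex2, Lbh, Dbi and S100a13, with Pearson r of 0.990 to 0.995 on z-scaled log2 levels. Acsbg1 is itself among the further astrocyte genes and S100a13 among the family genes. Since these 12 points fall into 6 TRAP and 6 input libraries, any gene with a steady drop in TRAP has a high r here. Within the 6 TRAP libraries alone the closest were Rad21, Neu4, Zfp691, Golm1, Vps4a, Heatr7a, Adcy3 and B9d1, none of them on an astrocyte list. There the r of the members with their own mean, of which each is a part, ran from -0.51 for Aqp4 to 0.90 for Glul over 6 libraries.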

How the data were processed

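The authors deposited raw counts of reads per gene for each of the 12 libraries, from a TopHat alignment to mm9 summarised by HTSeq-count over Gencode vM1 genes, with no normalization. Versions and the strand setting are not given in the sources used here. Symbols, positions and exon lengths came from Gencode vM1. The 10 genes, all gene lists and the alternatives were chosen with earlier results of these data known.

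Counts on genes were 3416030 to 5614089 per library. They were tested with edgeR 4.0.16 in R 4.3.3 (default filter by group, TMM, robust dispersion, quasi-likelihood test), with Benjamini-Hochberg adjustment over all genes tested and a threshold of 0.05. SE is the log2 difference over the square root of F. TRAP against input and its difference between genotypes came from a fit of 12 libraries, and KO against WT from a fit of 6. Shares are ratios of TMM CPM in a pool. Exact sign-flip and permutation tests, two-sided, used log2(CPM + 0.5). The steps were tested on simulated data. P-values measure the spread between pools of mice.

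TRAP and input libraries of the same number are the same pool, so numbers pair them, with correlations of deviations of 0.0582 to 0.106. For KO against WT the numbers stand for different mice.

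Named were all 10 members, the 3 most and 3 least depleted further astrocyte genes, members of the cycle, endfoot and family lists, the most abundant genes of other cell types, Fosb, and the 8 genes nearest in profile. Some genes of these lists are not reported here. Alternatives were RLE or total counts in place of TMM, no filter beyond 1 count, a mean of at least 10 counts, no mitochondrial genes, no robust dispersion, DESeq2 1.42.0, other sets of libraries, a replicate block and leaving out each pool. WT input library 1 left out alone was added after the data were seen. Exon stretches were aligned with minimap2 2.31.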

Additional observations from a re-analysis of the deposited data

Results flagged for a closer look

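The share of Aldh1l1 in TRAP of its input in WT pool 1 was 53.3%, far above the 5.28% to 21.5% of the other 5 pools. The gap to the next pool was 0.662 of the whole range of the 6 pools, over the critical value of 0.625. The value rests on 60 counts in TRAP and 69 in input. It was the only such value among the 10 genes, and chance gives about 1 in 20 groups. WT input library 1 also had counts on the fewest genes of the input libraries, and the part of that in the share was not tested.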

How the results depend on the processing

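In each of 15 or 16 alternatives per comparison, 10 of 10 members fell in TRAP against input and 0 of 10 were called between KO and WT or in the difference of enrichment. Median shares moved by less than 1 SD over pools under all 9 alternatives. With the replicate block, which joins the libraries of a pool, the 10 members fell in TRAP over both genotypes by 2.30 to 3.60 (log2) and no call of a member changed. For KO against WT, where equal numbers are different mice, the block gave 6 genes in TRAP against 8 and 20 in input against 4.

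Aldh1l1 in TRAP stayed lower in KO, from -2.22 to -1.26, with an unadjusted p between 0.000393 and 0.0400 in 17 of 17 settings and never called (adjusted p of 0.259 or more). In the main fit it passed the filter only through the WT libraries, which favoured a lower KO level. In the difference of enrichment it ran from -2.23 without KO pool 4 to -1.002 without WT pool 1, with an unadjusted p of 0.000426 to 0.0479. Glul in TRAP, from -0.42 to -0.21, was at an unadjusted p under 0.05 in 15 of 17 settings, and not without WT pool 2 or KO pool 2 (p up to 0.152). Ndrg2 in the difference of enrichment, from -0.64 to -0.27, was so in 14 of 16, and not without WT pool 3 or KO pool 2 (p up to 0.180). S100b in TRAP ran from -0.97 to -0.0879, the last without WT pool 3, with an unadjusted p from 0.0138 to 0.816. In input, Aqp4 ran from 0.0113 to 0.62, the last with the replicate block, Gja1 from 0.14 to 0.56, Slc1a2 from 0.0436 to 0.26 and Ndrg2 from 0.0314 to 0.23. They were at an unadjusted p under 0.05 in 3, 2, 2 and 1 of 17 settings and never called (adjusted p of 0.306 or more).

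Values of members that were not called changed sign in some settings, and the cause was not tested. In TRAP this was Slc1a2 with total counts (0.000798) and, with the replicate block, Gfap (0.0736), Slc1a2 (0.0238) and Gja1 (0.35). In input it was Gfap with the block (0.0329), and in the difference of enrichment Aqp4 without WT input library 1 (-0.21). Leaving out 1 pool gave, in TRAP, -0.38 to 0.0581 for Gfap, -0.20 to 0.96 for Aqp4, -0.17 to 0.10 for Slc1a2, -0.43 to 0.49 for Gja1 and -0.0583 to 0.30 for Slc1a3. In input it gave -0.22 to 0.000631 for Gfap, -0.0045 to 0.11 for Slc1a3, -0.31 to 0.12 for Aldh1l1, -0.0846 to 0.0627 for Glul and -0.21 to 0.0440 for S100b. In the difference of enrichment it gave -0.32 to 0.18 for Gfap, -0.73 to 0.92 for Aqp4, -0.84 to 0.17 for Gja1 and -0.14 to 0.20 for Slc1a3.

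Counts over all genes moved more. KO against WT in TRAP called 8 genes, 41 without a filter, 18 with DESeq2 and 5 to 20 without 1 pool, and 709 genes at an unadjusted p under 0.05 became 1101 without a filter and 431 without KO pool 4. In input 4 became 19 without a filter, 8 with DESeq2, 7 in a fit of all 12 libraries and 1 to 5 without 1 pool, and 371 unadjusted became 781 without a filter, 618 with the block and 665 without WT pool 2. The 1 gene called in the difference of enrichment was 0 without robust dispersion, without WT input library 1 and without any pool but KO 4, and 358 unadjusted became 704 without a filter. TRAP against input in KO called 3373 genes and 1984 to 2218 without 1 KO pool. Aqp4, Gja1 and Aldh1l1 rested on 6 to 60 counts per TRAP library, which limits their shares.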
